A study of Mus with 4 samples.

Results

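The genes described here are 50 genes for proteins of the cytosolic ribosome, given as Ensembl identifiers in the definition of the set, out of 54532 identifiers in the deposited count table. All 50 were found in the table and all 50 passed the filter on low counts, among 15510 genes tested. The set covers proteins of the large and the small subunit, Rplp0, Rpl3 and Rps6 among them, and leaves out Rpl29, Rps18 and Rpl34. It does not hold every other cytosolic ribosomal protein gene, and those outside it were not examined as a group. The sources used here do not pair the identifiers with symbols, so single genes are given by identifier, subunits could not be separated, and the label of the set could not be checked gene by gene. For the same reason no promoter or protein sequence is shown.

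RNA-seq libraries came from liver sinusoidal endothelial cells (LSECs), the fenestrated endothelium of the liver sinusoid, of mice given carbon tetrachloride (CCl4), a hepatotoxin. CTL denotes 2 control libraries (CTL1 and CTL2) and P1KO 2 libraries (KO1 and KO3) from mice with a deletion of Pofut1. Pofut1 is the protein O-fucosyltransferase that modifies EGF-like repeats of Notch receptors and other proteins. The CCl4 treatment was common to both groups, and the title of the series places the deletion in the endothelium. Strain, age, the driver of the deletion, the CCl4 schedule and the number of mice per library are not stated in these sources. The extraction protocol names heart ventricles, against a liver tissue label, and the cell identity and the loss of Pofut1 were not checked because markers could not be matched. Library totals lay between 17464769 and 17918834 counts.

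Ribosomal proteins assemble with ribosomal RNA into the small subunit, which decodes mRNA, and the large subunit, which forms peptide bonds. Each protein is needed in equal number per ribosome, with the acidic stalk proteins as the known exception, and the genes are expressed in all cell types. Their mRNAs carry a terminal oligopyrimidine (TOP) tract at the start, through which growth signals relayed by mTOR control their translation. They rank among the most abundant mRNAs of most cells. Mammalian genomes also hold many processed copies of ribosomal protein genes, and reads that match such a copy may be lost or misassigned in counting.

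These 50 ribosomal protein genes were higher in P1KO as a group, by a small amount. Of the 50 genes, 42 rose and 1 fell at an adjusted p below 0.05 (edgeR quasi-likelihood test, Benjamini-Hochberg adjustment over all tested genes), and 7 did not pass. Over all tested genes 9.68% were called higher and 9.84% lower. With either CTL library left out, the rises of the set were no longer called in edgeR, while the fall still was. Most calls of higher genes over all tested genes were then lost too, and the shares are given below. The median log2 change of the 50 genes was 0.34, a 1.27-fold higher level, against -0.01 over all tested genes. The quartiles of the 50 changes were 0.22 and 0.41, and those of all tested genes -0.26 and 0.18. Of the 50 genes, 43 lay above that upper quartile.

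**Figure D1:**
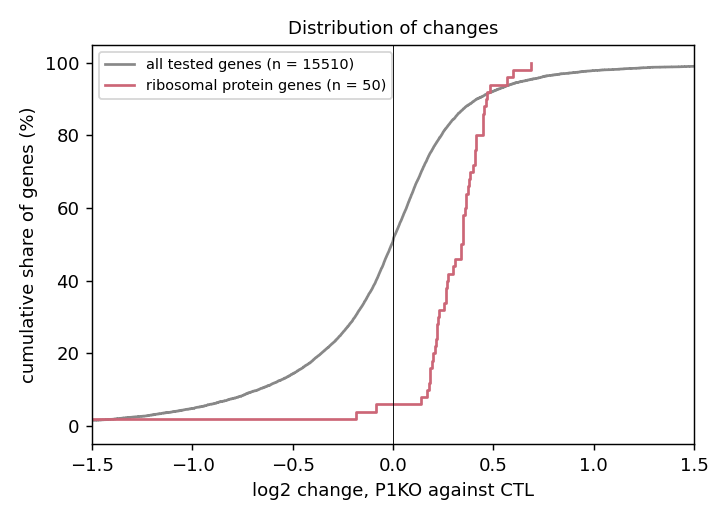
Cumulative share of genes (y axis, percent) at or below each log2 change of P1KO against CTL (x axis) for the 50 ribosomal protein genes and for all 15510 tested genes. Most of the ribosomal protein curve climbs between 0.14 and 0.68, with a median of 0.34, while the curve of all tested genes is centred at -0.01. The genes of the set below 0 stand at -0.09, at -0.19 and, outside the x axis, at -4.82.

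These genes are abundant, and abundant genes are called more often. Levels here are CPM, counts scaled to the size of the library and not divided by transcript length, so that they rank reads and not molecules. Of the 50 genes, 39 had a mean above 256 CPM, and 35 of these 39 were called higher and 0 lower in edgeR (37 of 39 passed an unadjusted p below 0.05 in either direction, as did 461 of all 689 tested genes of that range). Among these 689 genes above 256 CPM, 32.1% were called higher and 22.5% lower. The median log2 change was 0.34 for the 39 ribosomal protein genes and 0.03 for the 650 other genes of that range. Of the 39 genes, 26 lay above 0.25, the upper quartile of all 689 genes of that range. Above 64 CPM, 41 of 48 ribosomal protein genes were called higher, beside 22.4% of all tested genes in that range. The abundance ranges were chosen after the data were seen.

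The summed reads of the 50 genes made up 2.002% of CTL1 and 1.96% of CTL2, against 2.44% of KO1 and 2.37% of KO3. Both P1KO libraries lay above both CTL libraries. The mean share was 1.98% ± 0.0329 (SD, n = 2) in CTL and 2.40% ± 0.0512 (SD, n = 2) in P1KO, a ratio of 1.21. No p-value is attached, because the set was assembled with results of these data in view. With the 10 most abundant genes of each library taken out of the totals the ratio was 1.22. In bulk libraries a different mix of cells and a different amount of these mRNAs per cell cannot be told apart.

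**Figure D2:**
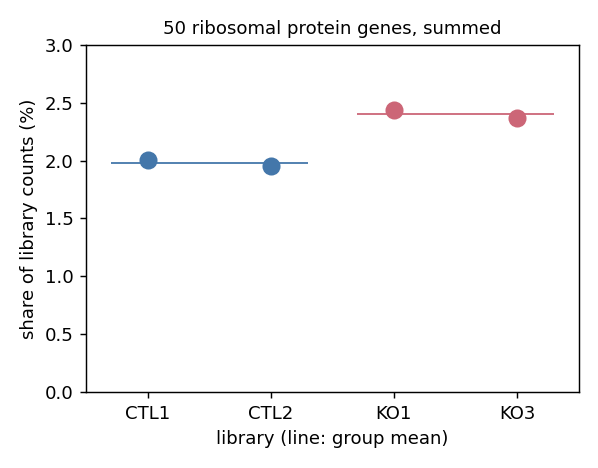
Share of all counts held by the 50 ribosomal protein genes (y axis, percent, from 0) in each of the 4 libraries (x axis), with lines at the group means. The CTL libraries stand at 2.002% and 1.96% and the P1KO libraries at 2.44% and 2.37%.

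Both knockout libraries carried the rise. Against the mean of the CTL libraries, the median log2 difference over the 50 genes was 0.37 in KO1 and 0.30 in KO3. KO1 was above KO3 for 44 of the 50 genes, with a median log2 difference of KO3 minus KO1 of -0.07. Among all 689 tested genes above 256 CPM, KO1 was above KO3 for 493, with a median of -0.06. For the 39 genes of the set in that range the values were 36 and -0.08. Over the 50 genes CTL2 minus CTL1 gave a median of -0.03. Both P1KO libraries were above both CTL libraries for 46 of the 50 genes and below them for 2, and the groups overlapped for 2. Over all tested genes 30.5% had both P1KO libraries above and 32.1% below. Among the 689 tested genes above 256 CPM, 339 had both above and 242 had both below. For the 39 genes of the set in that range these counts were 38 and 0.

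**Figure D3:**
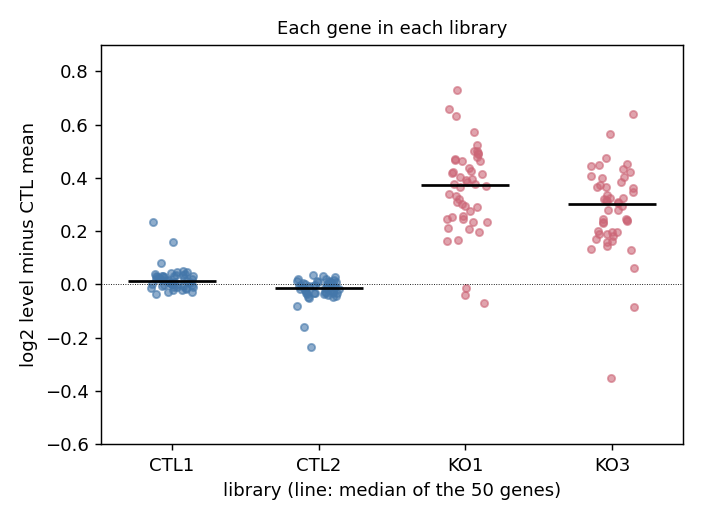
Log2 level of each ribosomal protein gene minus its mean log2 level in the CTL libraries (y axis), by library (x axis), with a line at the median of the 50 genes. The medians are 0.37 in KO1 and 0.30 in KO3, and the 1 gene that fell lies below the plotted range in both, at -4.44 in KO1 and -5.27 in KO3.

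The rises differed in size from gene to gene. Among the 42 genes called higher the log2 changes ranged from 0.17 to 0.68, with a median of 0.35. Of these, 31 were between 1.2-fold and 1.5-fold and 2 were above 1.5-fold. The 25 genes with more reads and the 25 with fewer had median log2 changes of 0.34 and 0.35.

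The largest rise was that of ENSMUSG00000037805, at 278 and 281 CPM in the CTL libraries, 463 CPM in KO1 and 436 CPM in KO3. Both P1KO values were well above both CTL values, which differed by little. The group means were 280 ± 2.21 CPM in CTL and 449.5 ± 19.7 CPM in P1KO (SD, n = 2 each). The log2 change was 0.68 ± 0.05 (SE; adjusted p of 0.000343, edgeR). The next was ENSMUSG00000067288, a gene with fewer reads, at 89.6 and 85.3 CPM in CTL1 and CTL2, 135 CPM in KO1 and 129 CPM in KO3. Its log2 change was 0.60 ± 0.06 (SE; adjusted p of 0.00099, edgeR). These were the 2 genes above 1.5-fold, at 1.61-fold and 1.51-fold. Without CTL1 their edgeR adjusted p-values were 0.0637 and 0.068, and without CTL2 they were 0.0613 and 0.083, with log2 changes of at least 0.56. The third largest rise, with 152 and 136 CPM in CTL1 and CTL2 and 227 and 200 CPM in KO1 and KO3, was a log2 change of 0.57 ± 0.08 (SE; adjusted p of 0.00387, edgeR). The 5 rises next in size were log2 changes of 0.45 to 0.48, and the groups overlapped in none of these 5 genes.

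The gene with the most reads in the set rose by less, from 869 CPM in CTL1 and 865 in CTL2 to 1140 in KO1 and 1116 in KO3. That is a log2 change of 0.38 ± 0.04 (SE; adjusted p of 0.00159, edgeR). The second by reads stood at 850, 855, 1175 and 1095 CPM in CTL1, CTL2, KO1 and KO3, with a log2 change of 0.41 ± 0.05 (SE) and an edgeR adjusted p of 0.00203. The third stood at 790, 767, 1036 and 944 CPM in the same order, with a log2 change of 0.35 ± 0.06 (SE) and an edgeR adjusted p of 0.00646. In each of these 3 genes the P1KO libraries were above the CTL libraries, and KO1 was above KO3. At the low end of the set, 1 gene with 311 and 332 reads in CTL1 and CTL2 had 460 in KO1 and 417 in KO3, and was called higher with a log2 change of 0.45 ± 0.10 (SE, edgeR adjusted p of 0.0234).

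**Figure D4:**
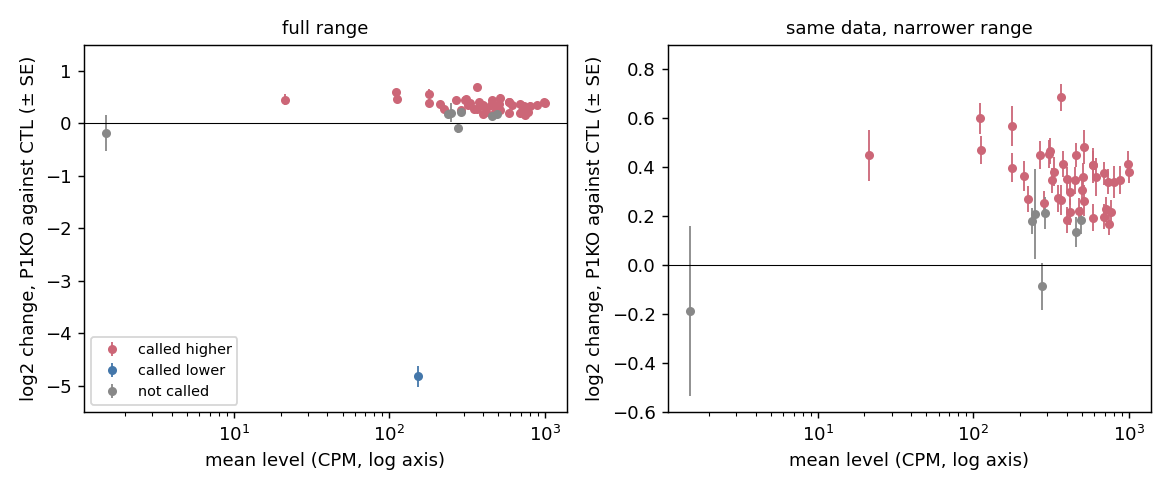
Log2 change of P1KO against CTL with its standard error (y axis) against mean level in CPM (log x axis) for the 50 ribosomal protein genes, over the full range on the left and without the gene that fell on the right. Genes called higher lie between 0.17 and 0.68 at mean levels from 21.5 CPM upwards, and 1 gene stands apart at -4.82.

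A single gene of the set fell, and it fell far. ENSMUSG00000044533 had 5162 and 5221 reads in CTL1 and CTL2 against 235 and 133 in KO1 and KO3. The level was alike in the CTL libraries and low in both P1KO libraries, with KO3 the lower. The means were 293 ± 1.19 CPM in CTL and 10.4 ± 4.16 CPM in P1KO (SD, n = 2 each). CTL was 28.2-fold higher, a log2 change of -4.82 ± 0.20 (SE; adjusted p of 2.69e-05, edgeR). It was 1 of 2 tested genes with at least 64 CPM in CTL that were 16-fold or more lower in P1KO. With this gene left out the ratio of summed shares, P1KO to CTL, was 1.23. The log2 change of this gene was -4.82 without CTL1, -4.83 without CTL2, -5.29 without KO1 and -4.46 without KO3. How reads matching several copies were counted is not stated, so the count of any single ribosomal protein gene is uncertain. For ENSMUSG00000044533 the annotation release and the strain of the mice are not stated either, and their part in the fall was not tested.

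Of the 7 genes that did not pass, 4 had both P1KO libraries above both CTL libraries, with log2 changes from 0.14 to 0.21 and edgeR adjusted p-values from 0.051 to 0.163. The other 3 did not share this order. ENSMUSG00000090733 had 270 CPM in CTL1 but 195 CPM in CTL2, with KO1 at 223 CPM and KO3 at 313 CPM, so both groups spread widely and overlapped. Its log2 change was 0.21 ± 0.18 (SE, edgeR adjusted p of 0.476). The size of its difference between the CTL libraries had rank 5 (1 being the widest) among the 3565 tested genes above 64 CPM. ENSMUSG00000061983 had 315 CPM in CTL1 and 253 in CTL2, and lay between them in KO1 and KO3, at 269 and 266 CPM. Its log2 change was -0.09 ± 0.10 (SE, edgeR adjusted p of 0.582). The median size of the difference between the CTL libraries over the 50 genes was 0.04 on the log2 scale, against 0.47 and 0.32 for these genes. ENSMUSG00000052146 had 28 reads in CTL1, 29 reads in CTL2, 28 reads in KO1 and 22 reads in KO3, and its log2 change of -0.19 ± 0.35 (SE, edgeR adjusted p of 0.753) was smaller than its error, so that a difference was not detectable at this depth.

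The number of calls depended on which libraries entered the fit, for the ribosomal protein genes and over all tested genes alike. Over the 50 genes the median size of the log2 difference was 0.04 within CTL and 0.08 within P1KO. Over all tested genes it was 0.095 and 0.146. The part of these spreads in the number of calls was not tested. Without CTL1 and without CTL2, where 0 ribosomal protein genes were called higher, edgeR called 0.374% and 0.348% of all tested genes higher, and 8.87% and 8.97% at an unadjusted p below 0.05. The sizes moved little, with a median log2 change of 0.34 without CTL1 and 0.31 without CTL2. In both fits, all 42 genes called higher with all 4 libraries kept a log2 change above 0. Without KO1 and without KO3, where the spread came from the CTL pair, 46 genes each were called higher, with medians of 0.30 and 0.37, and the shares over all tested genes were 17.2% and 17.0%. With the CTL libraries summed into 1, 0 of the 50 were called higher in edgeR, and 33 at an unadjusted p below 0.05, beside 0.451% and 8.74% of all tested genes. With all 4 libraries, DESeq2 called 39 genes higher (7.74% of all genes it tested) and limma-voom 44 (9.82%). Cyclic loess scaling, which levels out trends with abundance, left 36 called higher (8.04% of all tested genes), with a median of 0.28. When a change had to exceed 1.2-fold, edgeR called 11 of the 50 higher, beside 3.08% of all tested genes.

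**Figure D5:**
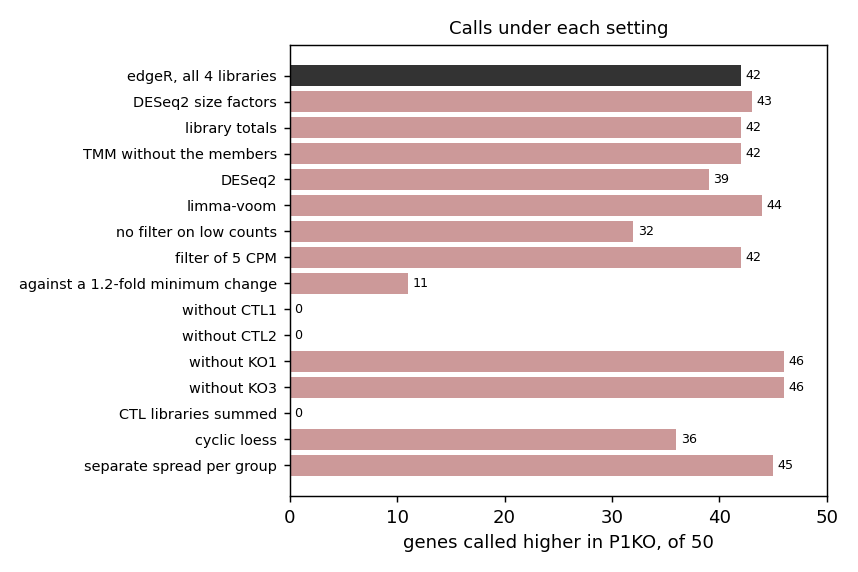
Number of the 50 ribosomal protein genes called higher in P1KO at an adjusted p below 0.05 (x axis, from 0) under each analysis setting (y axis). Calls of the fits without KO1 or KO3 do not reflect the spread of each gene and are not read as results. The bars stand at 42 for edgeR with all 4 libraries, 46 without either P1KO library, and 0 without either CTL library or with the CTL libraries summed.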

How the data were processed

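The authors deposited 1 table of raw read counts for 54532 Ensembl gene identifiers in 4 columns, and 0 columns were left out. Per the submitters' processing notes, featureCounts 1.5.0-p3, HISAT2 2.0.5, fastp and CASAVA were used, with build mm10. Strand setting, annotation release and multi-mapping rule are not stated there. KO3 matches no sample title by number and was placed in P1KO by its name. Whether the libraries are from different animals is not stated, and p-values thus reflect only library-to-library spread, which may be technical.

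Counts were tested with edgeR 4.0.16 in R 4.3.3 (filterByExpr, TMM, quasi-likelihood F-test, P1KO against CTL, no covariate). The SE is the log2 change divided by the root of F. Levels are TMM-scaled CPM, and differences between libraries use log2 CPM with a prior count of 2. Alternatives used DESeq2 1.42.0, limma 3.58.1, other scalings and filters, and libraries left out.

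The members and lists were chosen with earlier results of these data known. Single genes were taken by size of change, by level and among those not called. The identifiers of at most 2 genes that rose are printed. Since 0 identifiers matched a symbol, the choice of genes by role, 7 lists of other translation genes and 10 lists of cell type markers are not analysed here.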

Additional observations from a re-analysis of the deposited data

How the results depend on the processing

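DESeq2 size factors, library totals, TMM without the 50 genes, DESeq2, limma-voom, a 5 CPM filter, no filter and a separate spread per group (added after seeing the data) left the counts of ribosomal protein genes called higher and lower within 1.5 times, and the median of all tested genes moved by under 0.1 log2 in every scaling tried. Without a filter on low counts edgeR called 810 genes higher and 823 lower over the whole table, and 32 of the 50 higher. Against a 1.2-fold minimum it called 477 and 724, and 11 of the 50 higher. With both CTL libraries summed it called 70 and 82, and 0 of the 50 higher, with 33 of 50 higher at an unadjusted p below 0.05. Cyclic loess, added after seeing the data, gave a median log2 change of 0.28 and 36 of the 50 higher, beside 8.04% of all tested genes. Leaving out 1 library gave 54 to 2675 genes higher and 66 to 2716 lower over the whole table, 0 to 46 of the 50 higher and 1 to 2 lower, a median log2 change of 0.30 to 0.37, and a ratio of shares of 1.196 to 1.233. The log2 change of ENSMUSG00000061983 then ranged from -0.24 to 0.076, turning positive without CTL1 (0.076). That of ENSMUSG00000090733 ranged from -0.059 to 0.46, turning negative without CTL2 (-0.013) and without KO3 (-0.059). Neither was called in those fits or with all libraries, though both were without KO1, at -0.092 and 0.43. The causes were not tested. A group left with 1 library borrowed its spread from the other group. Calls without KO1 or KO3 did not reflect the spread of each gene and are not read as results. No paired analysis was possible because no sample title carries the number of KO3.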
